A study of Homo sapiens with 19 samples.

Results

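The serpins are a family of proteins that share a fold, most of which inhibit serine or cysteine proteases. Members were the genes of the count table whose official symbol is SERPIN followed by a clade letter from A to I and a number, without pseudogenes, and there were 34 of them among 78894 genes. Of these, 33 are described here, and counts and sums over serpins are over those 33. SERPINA2, which RefSeq lists as a transcribed pseudogene, was left out. RNA was measured by sequencing after removal of ribosomal RNA in 19 libraries of differentiated HepaRG cells, a human hepatic line that matures into hepatocyte-like and biliary-like cells. Batch 1 held 3 libraries with an siRNA against ADAR, 3 with an siRNA against ADARB1 and 3 with the negative control siRNA (siNC), each siRNA at 20 nM. ADAR and ADARB1 encode enzymes that convert adenosine to inosine in double-stranded RNA. Batch 2 held 2 libraries with interferon alpha (IFNa) at 1000 U/mL, 3 with BX795 at 1 µM, 2 with BX795 at 1 µM plus the ADAR siRNA at 20 nM, and 3 of its own siNC controls. BX795 is an inhibitor of the kinases TBK1 and IKK epsilon. Medium was changed at 24 h and 48 h in all groups. It is not stated in the labels if the IFNa and BX795 wells without ADAR siRNA received siNC, or if replicates came from separate cultures. P-values here measure only the spread between these libraries, which may be technical.

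An inhibitory serpin offers its target protease an exposed reactive loop as bait. Once the loop is cut, the serpin snaps into a new shape and traps the protease in a dead complex, so each molecule acts a single time. The liver makes most serpins of blood plasma, where they hold back clotting, fibrin breakdown, complement and leukocyte proteases, while the SERPINB proteins stay mostly inside cells. Some members inhibit nothing: SERPINA6 and SERPINA7 carry hormones, SERPINH1 helps collagen to fold, and SERPINF1 acts as a secreted signal.

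The family lies in a few clusters of the genome, and 250 bases upstream of the start of 5 genes called with an siRNA are printed here. They were chosen because their windows hold 1 of the motifs searched, so they do not stand for all called genes. Positions and sequences are from RefSeq on GRCh38.p14, the build the submitters' processing notes name. The SERPINA cluster on chromosome 14 held 9 members between positions 94280460 and 94624053, with SERPINA7 apart on the X chromosome. Chromosome 18 held 10 SERPINB genes between 63476958 and 64019779, and chromosome 6 held SERPINB1, SERPINB6 and SERPINB9. The RefSeq table of promoters matched 27 members with 41 annotated starts. SERPINA6 (chr14:94323337-94323586, minus strand), SERPINA7 (chrX:106038728-106038977, minus strand) and SERPINA10 (chr14:94293269-94293518, minus strand) are liver genes that fell with an siRNA. SERPINB2 (chr18:63887455-63887704, plus strand) and SERPINB7 (chr18:63777531-63777780, plus strand), intracellular serpins, rose with the ADAR siRNA. SERPINB7 has several annotated starts and SERPINA10 a second one. Each window ends at the base before the start and reads 5′ to 3′ on the gene's strand. Capitals mark GTTAAT, a core of the site of the liver factor HNF1, in the first 3 windows. In the SERPINB windows they mark TGANTCA, a loose form of the AP-1 site that takes any middle base, and in all windows they mark TATAAA. Each motif is marked in either orientation.
SERPINA6: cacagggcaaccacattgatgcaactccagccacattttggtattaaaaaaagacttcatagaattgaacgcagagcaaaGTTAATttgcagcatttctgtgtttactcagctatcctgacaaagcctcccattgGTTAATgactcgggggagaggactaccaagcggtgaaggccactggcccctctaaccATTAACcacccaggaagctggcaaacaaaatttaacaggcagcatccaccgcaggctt
SERPINA7: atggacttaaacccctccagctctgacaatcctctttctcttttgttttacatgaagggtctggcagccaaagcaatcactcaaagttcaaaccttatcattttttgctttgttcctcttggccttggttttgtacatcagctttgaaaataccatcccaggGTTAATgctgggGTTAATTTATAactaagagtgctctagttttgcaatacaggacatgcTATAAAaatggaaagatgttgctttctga
SERPINA10: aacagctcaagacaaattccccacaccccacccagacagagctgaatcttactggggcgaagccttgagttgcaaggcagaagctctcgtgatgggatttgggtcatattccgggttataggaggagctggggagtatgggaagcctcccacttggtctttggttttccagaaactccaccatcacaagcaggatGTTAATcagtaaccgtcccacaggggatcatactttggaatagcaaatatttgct
SERPINB2: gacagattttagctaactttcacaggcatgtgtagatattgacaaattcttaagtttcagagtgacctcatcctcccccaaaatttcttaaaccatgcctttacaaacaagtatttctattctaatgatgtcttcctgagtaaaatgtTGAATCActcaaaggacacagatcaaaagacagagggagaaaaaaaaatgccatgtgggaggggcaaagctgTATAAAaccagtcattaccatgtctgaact
SERPINB7: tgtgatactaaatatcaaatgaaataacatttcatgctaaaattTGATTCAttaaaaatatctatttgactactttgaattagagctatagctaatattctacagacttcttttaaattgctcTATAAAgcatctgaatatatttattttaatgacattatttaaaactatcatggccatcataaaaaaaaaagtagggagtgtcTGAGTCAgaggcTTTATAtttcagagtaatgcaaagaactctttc
GTTAAT stood at 3 places before SERPINA6, at 170 to 165, 115 to 110 and 58 to 53 bases before the start. Before SERPINA7 it stood at 88 to 83 and 76 to 71 bases, where its last base was also the first of a TATAAA on the other strand, and a second TATAAA lay at 29 to 24 bases. SERPINA10 held it at 55 to 50 bases. Among all 41 serpin windows, 7 held GTTAAT, those of SERPINA1, SERPINA4, SERPINA6, SERPINA7, SERPINA10, SERPINB12 and SERPINI2, and 6.23% of the 35097 windows of all genes held it. The window of SERPIND1, which fell with the ADAR siRNA, held none of the motifs, nor did those of SERPINE2. TGANTCA stood at 102 to 96 bases before SERPINB2, as TGAATCA. Before SERPINB7 it stood at 206 to 200 bases, as TGATTCA, and at 45 to 39 bases, as TGAGTCA. It was found in 9 of the 41 serpin windows, of 8 genes, and in 6.57% of all windows. Of the 7 serpins that rose with the ADAR siRNA, SERPINB2 and SERPINB7 held it, SERPINB7 at 2 of its 3 starts, and the windows of SERPINE2, SERPINH1, SERPINI1, SERPINB6 and SERPINA3 did not. TATAAA stood at 30 to 25 bases before SERPINB2 and at 127 to 122 and 33 to 28 bases before SERPINB7, and was found in 8 serpin windows and 10.7% of all windows. GAAANNGAA, a core of interferon response elements, was found in 1 serpin window, of SERPINB12, and in 6.88% of all windows. A match of letters is not a bound site, and overlapping windows of 1 gene share sequence.

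All 33 genes had counts in some library, and 25 passed the filter on low counts and were tested. The 8 others, SERPINA9, SERPINA12, SERPINB3, SERPINB10, SERPINB11, SERPINB13, SERPINE3 and SERPINI2, had 3 to 65 counts each over the 19 libraries. Levels are given as CPM, counts relative to library size after scaling by the trimmed mean of M-values, and averaged at least 1 CPM in 22 genes over batch 1 and in 20 over batch 2. Together the serpins summed to 14091 ± 842 CPM with the ADAR siRNA, 15229 ± 418 CPM with the ADARB1 siRNA and 13880.0 ± 896 CPM with siNC in batch 1 (SD, n = 3 each). In batch 2 they summed to 3304 ± 56.0 CPM with IFNa (n = 2), 3694 ± 91.9 CPM with BX795 (n = 3), 3228 ± 437 CPM with BX795 plus the ADAR siRNA (n = 2) and 4163 ± 513 CPM with siNC (n = 3, SD). SERPINA1 alone made up 76.5 to 77.5% of the counts of these serpins in batch 1 libraries and 59.0 to 70.1% in batch 2 libraries.

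Divided by the length of the longest coding transcript, SERPINA1, which encodes alpha-1-antitrypsin, the main inhibitor of neutrophil elastase, led every group. Its level was 3075 CPM per kb with the ADAR siRNA, 3331 with the ADARB1 siRNA and 3019 with siNC in batch 1. In the batch 1 controls SERPING1, the complement C1 inhibitor, followed at 348 CPM per kb. SERPINA3, the acute-phase protein alpha-1-antichymotrypsin, had 285, and SERPINC1, antithrombin, had 279.6 CPM per kb there. The deposited counts of SERPINA3 were fractional in all 19 libraries, so its levels and calls may include or lack reads shared with another feature. SERPING1, SERPINA3 and SERPINC1 lay close together, with SDs of 30.4, 26.7 and 23.0 CPM per kb in the order given. SERPIND1, heparin cofactor II, came next at 110.1 CPM per kb, ahead of SERPINF2, alpha-2-antiplasmin, at 79.7. In the batch 2 controls the order after SERPINA1 (812 CPM per kb) was SERPINA3 (202), SERPING1 (126) and SERPINA5 (57.3). SERPINC1 stood at 15.4 CPM per kb there and SERPIND1 at 4.21. The batches differed this way in their controls, so each comparison was made within a batch. SERPINB1, an inhibitor of neutrophil proteases, had the highest level per kb among the SERPINB genes, 26.8 CPM per kb in the controls of batch 1 and 22.4 in those of batch 2.

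**Figure D1:**
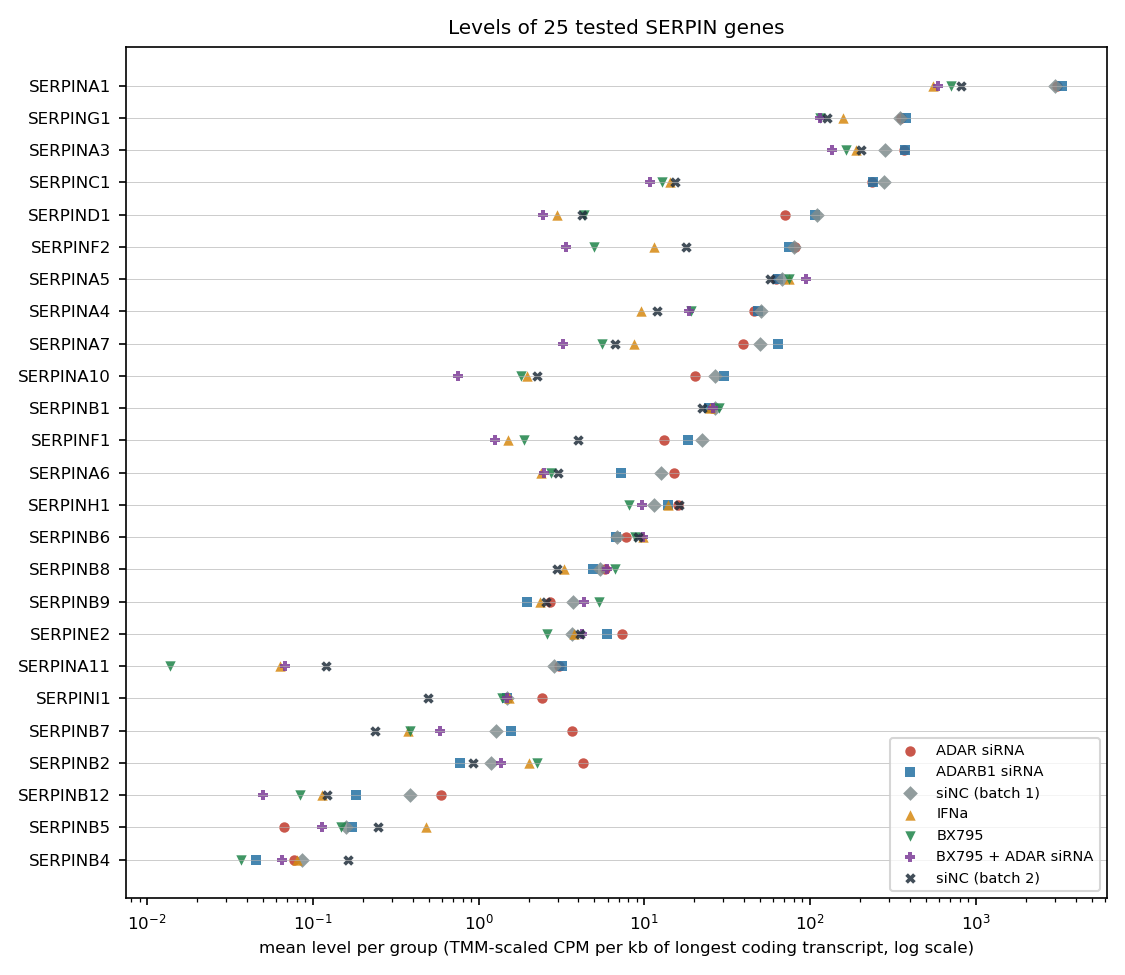
Mean level of the 25 tested SERPIN genes in each of the 7 groups, in CPM per kb of the longest coding transcript on a log axis. SERPINA1 lies furthest right in every group, and SERPINC1, SERPIND1, SERPINF2 and SERPINA10 lie further left in all batch 2 groups than in all batch 1 groups.

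Total counts were 42.7 to 77.1 M per library in batch 1 and 13.1 to 34.7 M in batch 2. ADAR was lower in both ADAR siRNA groups, by a log2 fold change of -2.02 ± 0.08 (SE, adjusted p = 1.19e-11) against siNC and of -2.31 ± 0.10 (SE, adjusted p = 1.41e-10) with BX795 against BX795 alone. ADARB1 was lower with its siRNA, at -1.58 ± 0.07 (SE, adjusted p = 2.20e-10). It was also called lower with the ADAR siRNA against siNC, where the median over the 2 targeted genes was -1.15. With BX795 against siNC, 1 of these 2 genes was called higher and 1 lower. All 10 hepatocyte markers had counts in every group. They summed to 44997 to 47811 CPM with the ADAR siRNA, 52881 to 56049 with the ADARB1 siRNA and 61428 to 64598 with siNC in batch 1, and to 4787 to 11045 CPM over the batch 2 libraries. The 8 biliary and progenitor markers summed to 1071 to 1106 CPM with the ADAR siRNA, 605 to 618 CPM with the ADARB1 siRNA and 542 to 588 CPM with siNC in batch 1, with EPCAM at 0 in the ADAR siRNA and siNC groups. Mesenchymal markers summed to 206 to 458 CPM and endothelial markers to 127 to 692 CPM over the 7 groups, with CDH5 at 0 in 3 groups. Leukocyte markers summed to 23.3 to 56.5 CPM and keratinocyte markers to 15.5 to 42.9 CPM over the 7 groups, and the platelet markers PF4 and GP9 were at 0 in all 7. In batch 2 the siNC libraries also differed from the others in how gene level followed GC content. The log2 trend from low to high GC was -0.41 to 0.08 with IFNa, -0.63 to -0.21 with BX795 and -0.54 to 0 with BX795 plus the ADAR siRNA, against 0.27 to 1.06 with siNC. Mitochondrial transcripts held 2.97 to 3.94% of counts with IFNa, 4.52 to 4.77% with BX795 and 3.86 to 5.48% with BX795 plus the ADAR siRNA, against 1.62 to 3.2% with siNC. Replicate 1 of the batch 2 siNC libraries stood apart from the other 2, with a chi-square per gene, which grows with depth, of 38.6 and 42.9 against them and of 11 between them, a GC trend of 0.27 against 1.06 and 0.89, and a mitochondrial share of 3.2% against 1.62% and 1.95%. BX795 replicate 1 had a chi-square per gene of 24.3 and 23.1 against the other 2, which had 5.52 between them. The 2 libraries of BX795 plus the ADAR siRNA differed by 58.1 and those of IFNa by 39.3. Without siNC replicate 1, 5 serpins were higher and 5 lower with IFNa, 7 and 8 with BX795, and 6 and 9 with BX795 plus the ADAR siRNA, in place of 4 and 5, 7 and 7, and 6 and 9. Without BX795 replicate 1, 7 were higher and 7 lower with BX795 against siNC, and 1 higher and 4 lower with BX795 plus the ADAR siRNA against BX795, in place of 2 and 3.

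With the ADAR siRNA SERPINE2, SERPINB2 and SERPINB7 were higher than with siNC. The secreted SERPIND1, SERPINA10 and SERPINF1 and the intracellular SERPINB9 were lower. Calls rest on edgeR's quasi-likelihood test, with p-values adjusted over 23121 genes (Benjamini-Hochberg) and a threshold of 0.05. By this rule 7 of the 25 tested serpins rose and 5 fell, beside 11% of all tested genes that rose and 10.8% that fell (21.8% in either direction). The median log2 fold change was 0.03 over the 25 serpins and -0.02 over all genes. In RNA from bulk cells, fewer cells of a type and less RNA per cell cannot be told apart.

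Plasminogen activators turn plasminogen into plasmin, which dissolves fibrin. SERPINE2, which encodes protease nexin-1, an inhibitor of thrombin and urokinase, had 19.6, 17.4 and 19.6 CPM with the ADAR siRNA and 10.1, 8.27 and 9.81 CPM with siNC, a log2 fold change of 1.00 ± 0.09 (SE, adjusted p = 1.84e-07). All libraries of the ADAR siRNA lay above all controls for this gene. SERPINB2, which encodes PAI-2, a mainly intracellular urokinase inhibitor, had 7.81, 9.99 and 9.79 CPM with the ADAR siRNA and 2.18, 2.42 and 3.08 CPM with siNC, a change of 1.84 ± 0.19 (SE, adjusted p = 1.26e-06). SERPINB7, megsin, had 8.63, 7.59 and 7.92 CPM with the ADAR siRNA and 2.38, 3.24 and 2.79 CPM with siNC, a change of 1.53 ± 0.16 (SE, adjusted p = 1.39e-06). Neither gene overlapped between the groups, and both were weakly expressed beside the secreted serpins. SERPINI1, neuroserpin, an inhibitor of tissue plasminogen activator, had 4.49, 4.70 and 4.57 CPM with the ADAR siRNA and 2.21, 2.94 and 3.31 CPM with siNC, a change of 0.70 ± 0.24 (SE, adjusted p = 0.0453). That call was lost without any 1 library except siNC replicate 3 (0.55 to 0.73, adjusted p 0.091 to 0.195).

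The plasma serpins that restrain clotting moved the other way or were not called. SERPIND1, the heparin-dependent inhibitor of thrombin, had 166, 173 and 176 CPM with the ADAR siRNA, against 264, 288 and 253 CPM with siNC, a log2 fold change of -0.64 ± 0.12 (SE, adjusted p = 0.000518). SERPINA10, which inhibits factor Xa together with protein Z, had 96.4, 100.3 and 104 CPM with the ADAR siRNA and 135, 139 and 125 CPM with siNC, a change of -0.41 ± 0.06 (SE, adjusted p = 0.000115). In both genes every ADAR siRNA library was below every control. Antithrombin (SERPINC1) averaged 375 ± 14.7 CPM with the ADAR siRNA and 446 ± 36.7 CPM with siNC (SD, n = 3 each), at -0.25 ± 0.11 (SE, adjusted p = 0.123), which did not pass. SERPINC1 was called lower with no filter on low counts (-0.25, adjusted p = 0.0376). So it was with batch 1 alone (-0.24, adjusted p = 0.00251) and the compared groups alone (-0.24, adjusted p = 0.00329), fits that also called more of all genes. SERPINA5, the protein C inhibitor, which also inhibits urokinase, was at -0.12 ± 0.08 (SE, adjusted p = 0.343), and SERPINF2, the plasmin inhibitor, at 0.02 ± 0.13 (SE, adjusted p = 0.935). Neither of these passed. SERPIND1 overlaps PI4KA in RefSeq, and the use of strand in the counting is not stated.

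Among the hormone carriers, SERPINA7, thyroxine-binding globulin, had 104, 103 and 107 CPM with the ADAR siRNA and 131, 137 and 129 CPM with siNC, a change of -0.34 ± 0.11 (SE, adjusted p = 0.04). SERPINA6, corticosteroid-binding globulin, was at 0.25 ± 0.12 (SE, adjusted p = 0.143) and did not pass. Of the acute-phase inhibitors, SERPINA3 had 919.7, 989.8 and 1018 CPM with the ADAR siRNA and 714, 841 and 723 CPM with siNC, a rise of 0.36 ± 0.10 (SE, adjusted p = 0.016). SERPINA1 was at 0.03 ± 0.09 (SE, adjusted p = 0.889) and SERPING1 at 0.03 ± 0.07 (SE, adjusted p = 0.823), both with averages that differed by less than their spread. SERPINA4, kallistatin, an inhibitor of tissue kallikrein, was at -0.15 ± 0.07 (SE, adjusted p = 0.149).

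SERPINH1, the collagen chaperone HSP47, had 52.7, 56.6 and 52.1 CPM with the ADAR siRNA and 37.1, 40.0 and 39.8 CPM with siNC, a rise of 0.47 ± 0.10 (SE, adjusted p = 0.00223). SERPINF1, pigment epithelium-derived factor, a secreted protein that restrains blood vessel growth, had 19.2, 21.5 and 20.1 CPM with the ADAR siRNA and 33.4, 37.4 and 32.6 CPM with siNC, a change of -0.77 ± 0.12 (SE, adjusted p = 0.000101). The groups did not overlap in either gene. SERPINB9, the intracellular inhibitor of granzyme B, had 12.1, 10.4 and 10.7 CPM with the ADAR siRNA and 14.8, 14.9 and 15.9 CPM with siNC, a change of -0.46 ± 0.12 (SE, adjusted p = 0.00844). SERPINB9 overlaps its antisense gene SERPINB9-AS1, so reads of both may be mixed. SERPINB6, an inhibitor of cathepsin G, rose by 0.17 ± 0.05 (SE, adjusted p = 0.0366), and SERPINB1 and SERPINB8 did not pass at -0.06 ± 0.08 and 0.10 ± 0.10. All 6 tested biliary and progenitor markers rose in the same comparison, 4 of 7 mesenchymal markers rose and 1 fell, and 5 of 10 hepatocyte markers fell and 2 rose. The part of these cell types in the serpin changes was not tested. SERPINA3 lost its call without siNC replicate 1 or 3 or ADAR siRNA replicate 2 or 3 (0.32 to 0.35, adjusted p 0.051 to 0.0782), and SERPINA7 without any 1 of the 6 libraries (-0.36 to -0.31, adjusted p 0.071 to 0.122). SERPINB6 lost it without any 1 of the 6 except ADAR siRNA replicate 3 (0.15 to 0.19, adjusted p 0.0509 to 0.135), and with no filter on low counts (adjusted p = 0.328), and 4 serpins in place of 7 rose without siNC replicate 1 or ADAR siRNA replicate 2.

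**Figure D2:**
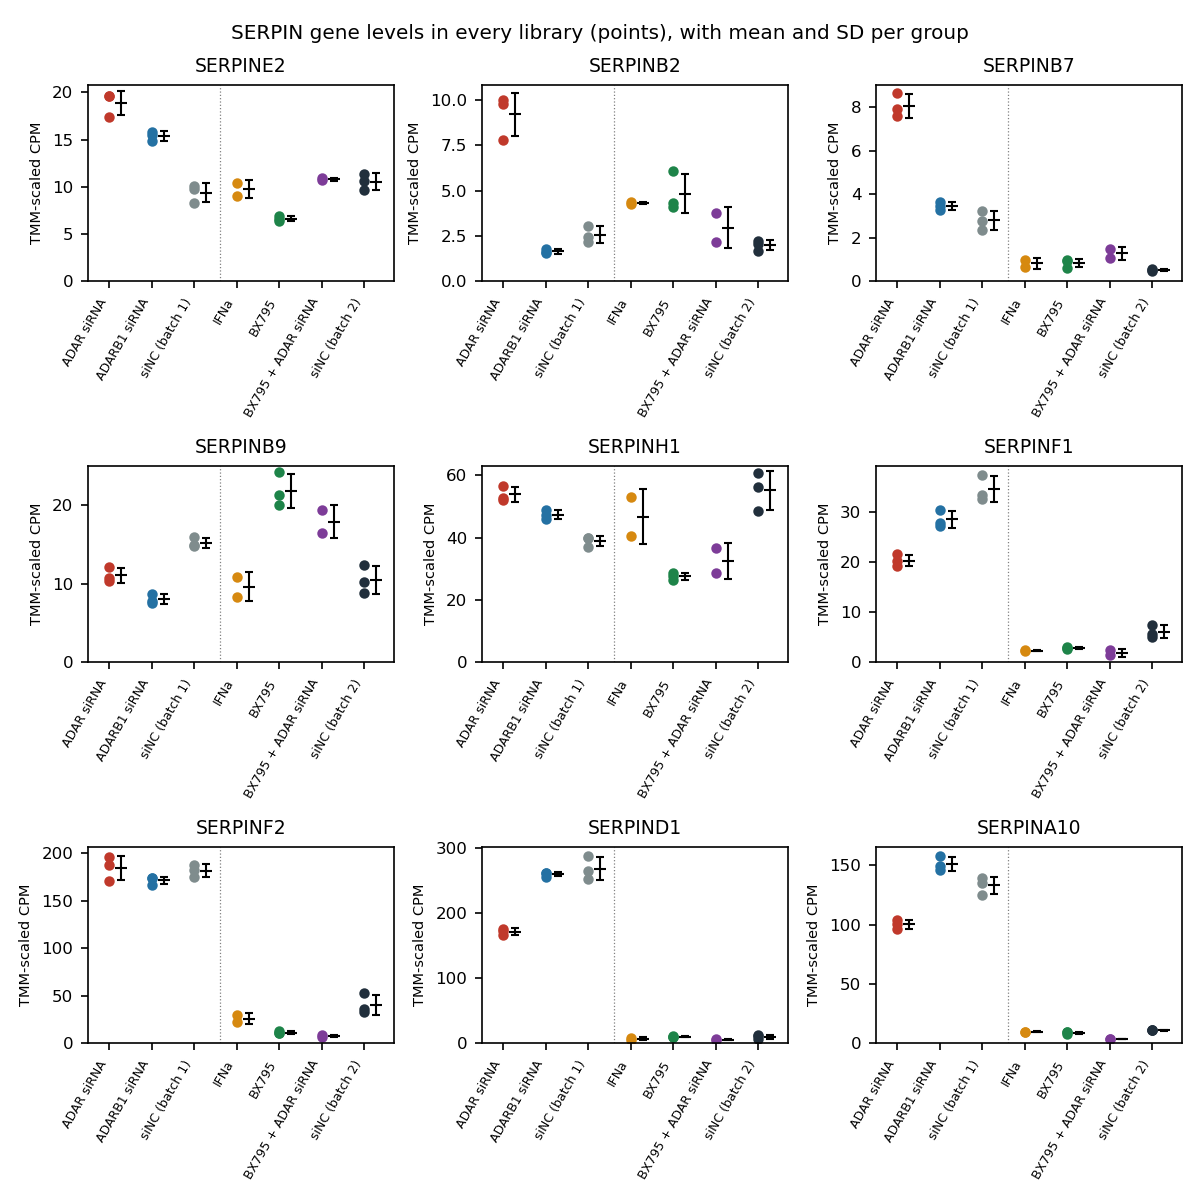
CPM of 9 SERPIN genes in every library (points), with the mean and SD of each group beside them, batch 1 left of the dotted line and batch 2 right of it. SERPINE2 is highest in batch 1 with the ADAR siRNA, lower with the ADARB1 siRNA and lowest with siNC, and SERPIND1 and SERPINA10 are lowest in batch 1 with the ADAR siRNA.

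With the ADARB1 siRNA SERPINE2 and SERPINA3 rose against siNC, and SERPINB9 and SERPINA6 fell. These were 2 higher and 2 lower of 25 tested, beside 2.10% of all tested genes that rose and 2.51% that fell (4.61% in either direction). Over the serpins the median log2 fold change was -0.05, and over all genes it was -0.00. SERPINE2 had 15.5, 15.8 and 14.8 CPM with the ADARB1 siRNA and 10.1, 8.27 and 9.81 CPM with siNC, a log2 fold change of 0.71 ± 0.09 (SE, adjusted p = 7.70e-05). It was higher in 3 of 3 libraries than in any control. SERPINA3 had 974, 1013 and 1009 CPM with the ADARB1 siRNA and 714, 841 and 723 CPM with siNC, a change of 0.40 ± 0.10 (SE, adjusted p = 0.0322). SERPINB9 had 7.83, 8.73 and 7.53 CPM with the ADARB1 siRNA and 14.8, 14.9 and 15.9 CPM with siNC, a change of -0.92 ± 0.12 (SE, adjusted p = 0.000111). SERPINA6, the cortisol carrier, had 10.2, 10.3 and 12.7 CPM with the ADARB1 siRNA and 18.0, 21.6 and 18.3 CPM with siNC, a change of -0.80 ± 0.12 (SE, adjusted p = 0.000394). In both falling genes the groups were apart. The 4 other genes that fell with the ADAR siRNA were not called here, with SERPIND1 at -0.05 ± 0.12 (SE, adjusted p = 0.921), SERPINA10 at 0.18 ± 0.06 (SE, adjusted p = 0.137), SERPINA7 at 0.35 ± 0.11 (SE, adjusted p = 0.093) and SERPINF1 at -0.28 ± 0.12 (SE, adjusted p = 0.241). SERPINB2 was at -0.63 ± 0.20 (SE, adjusted p = 0.0988) and SERPINB7 at 0.31 ± 0.16 (SE, adjusted p = 0.384). SERPINH1 was at 0.28 ± 0.10 (SE, adjusted p = 0.149). Under some alternatives SERPINA7 (0.35 to 0.39), SERPINA10 (0.18 to 0.20), SERPINH1 (0.22 to 0.28) and SERPINA1 (0.14) were called higher. SERPINF1 (-0.28), SERPINB2 (-0.64 to -0.62) and SERPINC1 (-0.23) were called lower under some. Of the markers tested, 2 of 6 biliary and progenitor genes rose and 3 of 10 hepatocyte genes fell. SERPINA3 lost its call without siNC replicate 1 or 3 or any 1 ADARB1 siRNA library (0.35 to 0.41, adjusted p 0.0795 to 0.158), which left 1 serpin higher in place of 2. A fit to batch 1 alone called 5 serpins higher and 5 lower. That fit also called more of all genes, 1794 higher in place of 485 and 1838 lower in place of 581.

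The siRNAs themselves were set against each other next, since each was compared above with the same 3 controls. The ADAR siRNA had 7 serpins higher and 4 lower than the ADARB1 siRNA among 25 tested, beside 9.90% and 9.64% of all tested genes (19.5% in either direction). The serpins had a median of 0.06 on this scale and all genes one of -0.03. SERPINB2 had 7.81, 9.99 and 9.79 CPM with the ADAR siRNA and 1.81, 1.63 and 1.54 CPM with the ADARB1 siRNA, a log2 fold change of 2.46 ± 0.20 (SE, adjusted p = 6.45e-08). SERPINB7 differed by 1.22 ± 0.16 (SE, adjusted p = 1.86e-05), with 8.63, 7.59 and 7.92 CPM against 3.45, 3.28 and 3.66 CPM. SERPINE2 was also higher with the ADAR siRNA, by 0.30 ± 0.09 (SE, adjusted p = 0.0217). The rise of SERPINE2 was thus larger with the ADAR siRNA than with the ADARB1 siRNA. SERPINA6 had 21.6, 23.6 and 23.7 CPM with the ADAR siRNA and 10.2, 10.3 and 12.7 CPM with the ADARB1 siRNA, a difference of 1.06 ± 0.12 (SE, adjusted p = 3.74e-06). No library overlapped between the siRNAs for SERPINA6. SERPINB9 was lower than siNC with both siRNAs and higher with the ADAR than with the ADARB1 siRNA, by 0.46 ± 0.12 (SE, adjusted p = 0.0107). SERPINB12, at 0.839, 0.813 and 0.628 CPM with the ADAR siRNA and 0.285, 0.109 and 0.307 CPM with the ADARB1 siRNA, differed by 1.71 ± 0.45 (SE, adjusted p = 0.0104) on 110 counts against 35. SERPINB6 differed by 0.20 ± 0.05 (SE, adjusted p = 0.0163). SERPINA7, SERPIND1, SERPINA10 and SERPINF1 stood the other way. SERPINA7 was lower with the ADAR siRNA, at 104, 103 and 107 CPM against 168, 171 and 168 CPM, a difference of -0.69 ± 0.11 (SE, adjusted p = 0.000216). SERPIND1 differed by -0.60 ± 0.12 (SE, adjusted p = 0.00113) and SERPINA10 by -0.59 ± 0.06 (SE, adjusted p = 2.25e-06), both lower in every ADAR siRNA library. SERPINF1 was lower by the same measure, at -0.49 ± 0.12 (SE, adjusted p = 0.00592). SERPINA3, called higher than siNC with both, differed by -0.03 ± 0.10 (SE, adjusted p = 0.872), which did not pass. SERPINH1 did not pass either at 0.19 ± 0.10 (SE, adjusted p = 0.22), and was called higher under some alternatives (0.20 to 0.22). Of the markers tested, 3 of 6 biliary and progenitor genes were higher, 4 of 10 hepatocyte genes were lower and 2 higher, and 3 of 7 mesenchymal genes were higher and 2 lower, and their part was not tested. With no filter on low counts SERPINE2 (adjusted p = 0.107) and SERPINB6 (adjusted p = 0.215) were not called. SERPINE2 lost its call without ADAR siRNA replicate 1 or 3 or ADARB1 siRNA replicate 1 or 3 (0.27 to 0.30, adjusted p 0.062 to 0.0886), SERPINB6 without replicate 1 or 2 of the ADAR siRNA or 2 or 3 of the ADARB1 siRNA (0.17 to 0.18, adjusted p 0.0637 to 0.0841) and SERPINB9 without ADAR siRNA replicate 1 or ADARB1 siRNA replicate 3 (0.39 to 0.42, adjusted p 0.0513 to 0.0634). SERPINB12 lost it without ADARB1 siRNA replicate 2 (1.36, adjusted p = 0.0582), and 4 serpins in place of 7 were higher without ADAR siRNA replicate 1 or ADARB1 siRNA replicate 3.

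**Figure D3:**
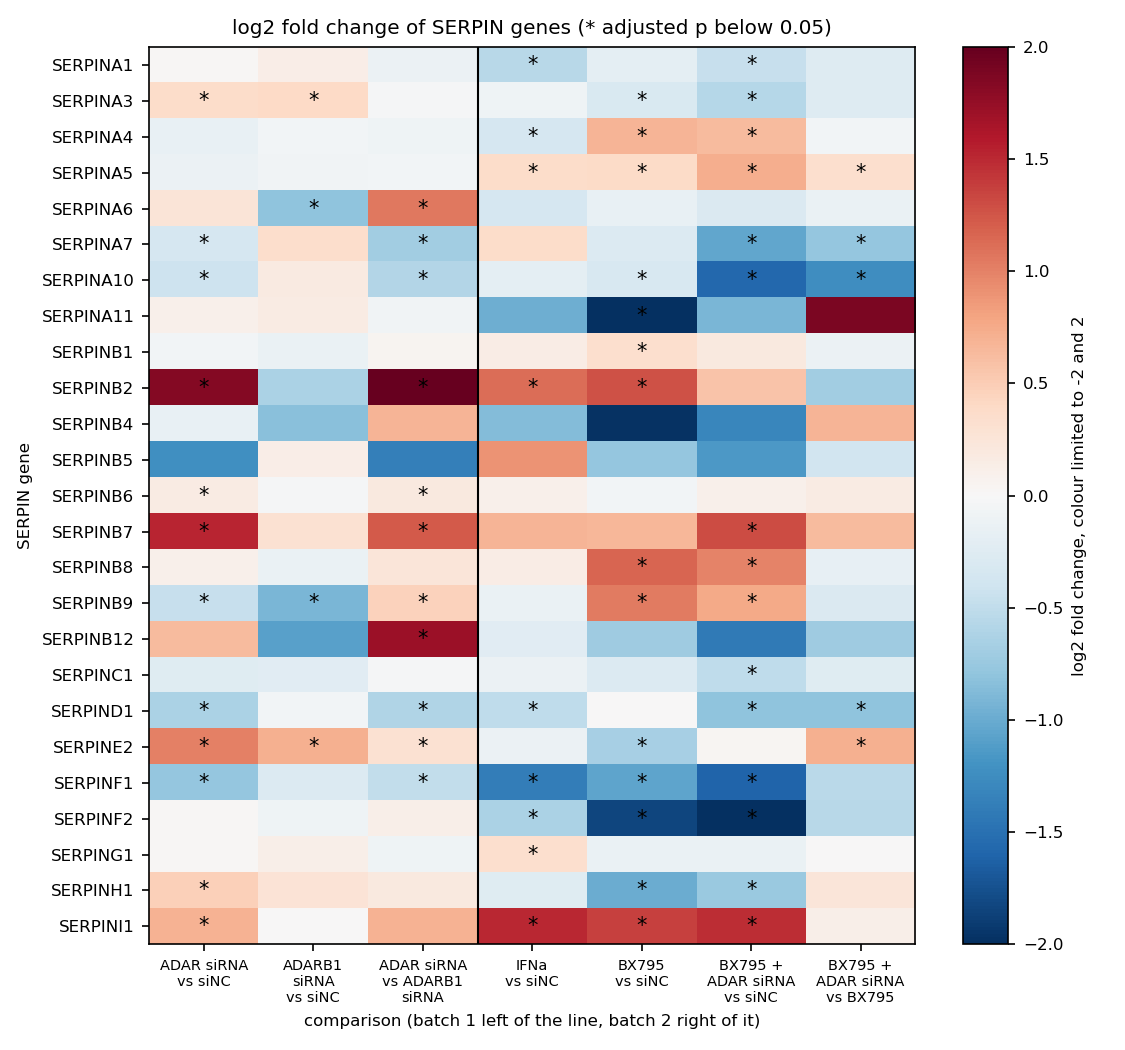
log2 fold change of the 25 tested SERPIN genes in the 7 comparisons, red for higher and blue for lower, with a star for an adjusted p below 0.05. SERPINF1 and SERPINC1 are below 0 in all 7. SERPINF1 has no star with the ADARB1 siRNA against siNC or with BX795 plus the ADAR siRNA against BX795. SERPINC1 has a star only with BX795 plus the ADAR siRNA against siNC.

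With interferon alpha the elastase inhibitor SERPINA1 and the secreted SERPINF1 and SERPINF2 were lower, and the complement inhibitor SERPING1 was higher. Among 25 tested serpins 4 rose and 5 fell against siNC, beside 18.4% of all tested genes that rose and 15.9% that fell (34.3% in either direction). The median log2 fold change of the serpins was -0.12, beside -0.02 for all genes. ADAR itself, an interferon-induced gene, rose by 1.69 ± 0.09 (SE, adjusted p = 1.21e-10) on the log2 scale. SERPING1 had 339 and 369.6 CPM with IFNa and 275, 302 and 266 CPM with siNC, a log2 fold change of 0.33 ± 0.08 (SE, adjusted p = 0.00478). Both IFNa libraries were above all 3 controls. C1R and C1S, whose proteases the C1 inhibitor blocks, rose too, by 0.27 ± 0.09 (SE, adjusted p = 0.0246) and 0.24 ± 0.06 (SE, adjusted p = 0.00449). SERPINA1 had 1926 and 1974 CPM with IFNa and 2974, 3187 and 2449 CPM with siNC, a change of -0.56 ± 0.11 (SE, adjusted p = 0.000735). SERPINF1 had 2.26 and 2.41 CPM with IFNa and 5.10, 7.52 and 5.71 CPM with siNC, a change of -1.38 ± 0.19 (SE, adjusted p = 5.17e-05). Both genes were lower in each IFNa library than in any control. SERPINF2 had 22.1 and 30.3 CPM with IFNa and 33.0, 52.7 and 36.4 CPM with siNC, a change of -0.64 ± 0.16 (SE, adjusted p = 0.00493). SERPINA4 had 18.1 and 20.2 CPM with IFNa and 22.7, 27.2 and 22.3 CPM with siNC, at -0.33 ± 0.09 (SE, adjusted p = 0.00729). The IFNa libraries lay below all controls in SERPINF2 and SERPINA4. SERPIND1 had 8.75 and 5.83 CPM with IFNa and 12.5, 11.1 and 7.19 CPM with siNC, at -0.51 ± 0.17 (SE, adjusted p = 0.029), and its libraries overlapped between the groups. SERPINI1 had 3.13 and 2.66 CPM with IFNa and 1.54, 0.995 and 0.296 CPM with siNC, a rise of 1.50 ± 0.33 (SE, adjusted p = 0.00226). SERPINB2 had 4.36 and 4.26 CPM with IFNa and 2.21, 1.68 and 2.08 CPM with siNC, a rise of 1.11 ± 0.24 (SE, adjusted p = 0.00205). These last 2 genes had few counts but did not overlap. SERPINA5 had 185 and 162 CPM with IFNa and 139, 136 and 127 CPM with siNC, a rise of 0.37 ± 0.09 (SE, adjusted p = 0.00339). SERPINB9, whose target granzyme B is a weapon of lymphocytes, was before correction for GC content at -0.14 ± 0.14 (SE, adjusted p = 0.492) and SERPINA3 at -0.09 ± 0.12 (SE, adjusted p = 0.585), and neither passed.

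The GC content of a serpin's transcripts moved with its IFNa fold change, with a Pearson r of -0.54 over 25 genes that share the same libraries, and of -0.23 after a correction of the counts for GC content. After that correction SERPINF2, at 61.5% GC, was at -0.19 ± 0.09 (SE, adjusted p = 0.157) and SERPINA4 at -0.18 ± 0.07 (SE, adjusted p = 0.0759), so both lost their call. SERPINA1 stayed lower at -0.40 ± 0.10 (SE, adjusted p = 0.0063) and SERPING1 stayed higher at 0.48 ± 0.07 (SE, adjusted p = 6.38e-05). The correction added calls of SERPINB9, at -0.37 ± 0.11 (SE, adjusted p = 0.0174), and SERPINA10, at -0.34 ± 0.08 (SE, adjusted p = 0.00328), both lower with IFNa. Of the markers tested, 5 of 10 hepatocyte genes fell and 1 rose with IFNa, and the part of this in the falls of liver serpins was not tested. Without IFNa replicate 1, 3 serpins rose and 3 fell, and SERPINA4 (-0.24, adjusted p = 0.185), SERPINA5 (0.29, adjusted p = 0.102) and SERPINF2 (-0.41, adjusted p = 0.163) were not called. SERPIND1 lost its call without siNC replicate 1 or 2 or IFNa replicate 2 (-0.47 to -0.24, adjusted p 0.0796 to 0.349), and 7 serpins in place of 4 rose without IFNa replicate 2. A fit to these 5 libraries alone called 1 serpin higher and 2 lower, and ended the calls of SERPING1 (0.32, adjusted p = 0.0997), SERPINI1 (1.52, adjusted p = 0.0578), SERPINA5 (0.36, adjusted p = 0.081), SERPINA4 (-0.34, adjusted p = 0.133), SERPINF2 (-0.65, adjusted p = 0.0757) and SERPIND1 (-0.51, adjusted p = 0.2). SERPIND1 was not called in a fit of batch 2 alone either (adjusted p = 0.128).

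With BX795 the intracellular SERPINB1, SERPINB2, SERPINB8 and SERPINB9 rose, and the plasmin inhibitor SERPINF2 and the collagen chaperone SERPINH1 fell. Against siNC, 7 of 25 tested serpins rose and 7 fell, beside 23.4% of all tested genes that rose and 23.7% that fell (47.1% in either direction). Their median log2 fold change was -0.20, beside -0.01 over all genes. The shares called are near those of all genes. SERPINB8, an inhibitor of the convertase furin, had 21.4, 24.7 and 23.6 CPM with BX795 and 10.9, 10.6 and 9.49 CPM with siNC, a log2 fold change of 1.16 ± 0.11 (SE, adjusted p = 4.49e-07). SERPINB9 had 20.0, 24.2 and 21.3 CPM with BX795 and 12.4, 10.2 and 8.89 CPM with siNC, a rise of 1.04 ± 0.13 (SE, adjusted p = 5.94e-06). All BX795 libraries lay above the controls in both. SERPINB2 had 4.32, 6.10 and 4.10 CPM with BX795 and 2.21, 1.68 and 2.08 CPM with siNC, a rise of 1.27 ± 0.22 (SE, adjusted p = 0.000161), and SERPINB1 rose by 0.33 ± 0.08 (SE, adjusted p = 0.00412). SERPINI1 had 2.23, 3.03 and 2.66 CPM with BX795 and 1.54, 0.995 and 0.296 CPM with siNC, a rise of 1.37 ± 0.31 (SE, adjusted p = 0.00154). Secreted members rose as well, SERPINA4 to 37.0, 38.7 and 39.8 CPM with BX795, against 22.7, 27.2 and 22.3 CPM with siNC, at 0.68 ± 0.08 (SE, adjusted p = 2.60e-06), and SERPINA5 by 0.39 ± 0.08 (SE, adjusted p = 0.000643). SERPINA4 did not overlap between the groups.

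SERPINF2 had 12.8, 10.7 and 10.8 CPM with BX795 and 33.0, 52.7 and 36.4 CPM with siNC, a change of -1.84 ± 0.15 (SE, adjusted p = 6.96e-08), with no overlap. SERPINH1 had 27.6, 26.4 and 28.6 CPM with BX795 and 48.4, 56.2 and 60.7 CPM with siNC, a change of -1.00 ± 0.11 (SE, adjusted p = 1.42e-06). Collagens, the clients of this chaperone, fell in 6 of 7 genes tested, beside 23.7% of all genes. Among them were COL5A1 (-1.59 ± 0.15, SE, adjusted p = 2.48e-07), COL3A1 (-1.43 ± 0.15, SE, adjusted p = 1.20e-06) and COL6A1 (-0.61 ± 0.11, SE, adjusted p = 0.000191). The collagen values are without correction for GC content. SERPINF1 had 2.70, 2.83 and 3.15 CPM with BX795 and 5.10, 7.52 and 5.71 CPM with siNC, a change of -1.06 ± 0.17 (SE, adjusted p = 6.20e-05). All BX795 libraries lay below all controls in SERPINF1, SERPINF2 and SERPINH1. SERPINE2 had 6.55, 6.44 and 6.91 CPM with BX795 and 10.6, 9.70 and 11.4 CPM with siNC, a change of -0.67 ± 0.10 (SE, adjusted p = 4.26e-05). SERPINA10 fell, at -0.32 ± 0.08 (SE, adjusted p = 0.00437) and SERPINA3 at -0.31 ± 0.10 (SE, adjusted p = 0.0214). SERPINA11 was called lower on 2 counts in the BX795 group and 10 counts in the siNC group, too few for a fold change. SERPINA1 (-0.20 ± 0.09), SERPINC1 (-0.27 ± 0.13), SERPIND1 (0.00 ± 0.15) and SERPING1 (-0.14 ± 0.07) did not pass.

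With BX795, too, the fold change moved with GC content, at a Pearson r of -0.38 over 25 genes before the correction and of -0.11 after it. Corrected, SERPINF2 was at -1.22 ± 0.09 (SE, adjusted p = 1.40e-08) and SERPINH1 at -0.49 ± 0.07 (SE, adjusted p = 1.62e-05), both smaller than uncorrected. The rises were at 0.87 ± 0.09 (SE, adjusted p = 9.08e-07) for SERPINB8, 0.74 ± 0.10 (SE, adjusted p = 9.95e-06) for SERPINB9, 0.97 ± 0.21 (SE, adjusted p = 0.00118) for SERPINB2 and 0.96 ± 0.29 (SE, adjusted p = 0.0137) for SERPINI1. All of these calls held. SERPINB1 was at 0.20 ± 0.07 (SE, adjusted p = 0.0255) after correction and SERPINA10 at -0.54 ± 0.07 (SE, adjusted p = 1.81e-05). The correction added calls of SERPINA7, at -0.59 ± 0.11 (SE, adjusted p = 0.000264) beside -0.27 ± 0.13 (SE, adjusted p = 0.105) without it, and SERPINC1, at -0.34 ± 0.12 (SE, adjusted p = 0.0343). The markers moved in the same comparison, beside 23.7% of all genes lower and 23.4% higher. Of 10 hepatocyte genes 7 were lower and 2 higher, and of 7 mesenchymal genes 5 were lower and 1 higher. Of 6 biliary and progenitor genes 4 were lower and 2 higher. The part of the markers in the serpin changes was not tested. SERPINA3 lost its call without siNC replicate 2 or BX795 replicate 2 or 3 (-0.29 to -0.16, adjusted p 0.0595 to 0.181), after GC correction and when batch 2 or the compared groups were fitted alone. SERPINA10 lost it with no filter on low counts (-0.27, adjusted p = 0.0708) and with the compared groups alone (-0.34, adjusted p = 0.0572). SERPINA11 lost it without siNC replicate 2 or BX795 replicate 2 (adjusted p 0.147 and 0.0594).

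**Figure D4:**
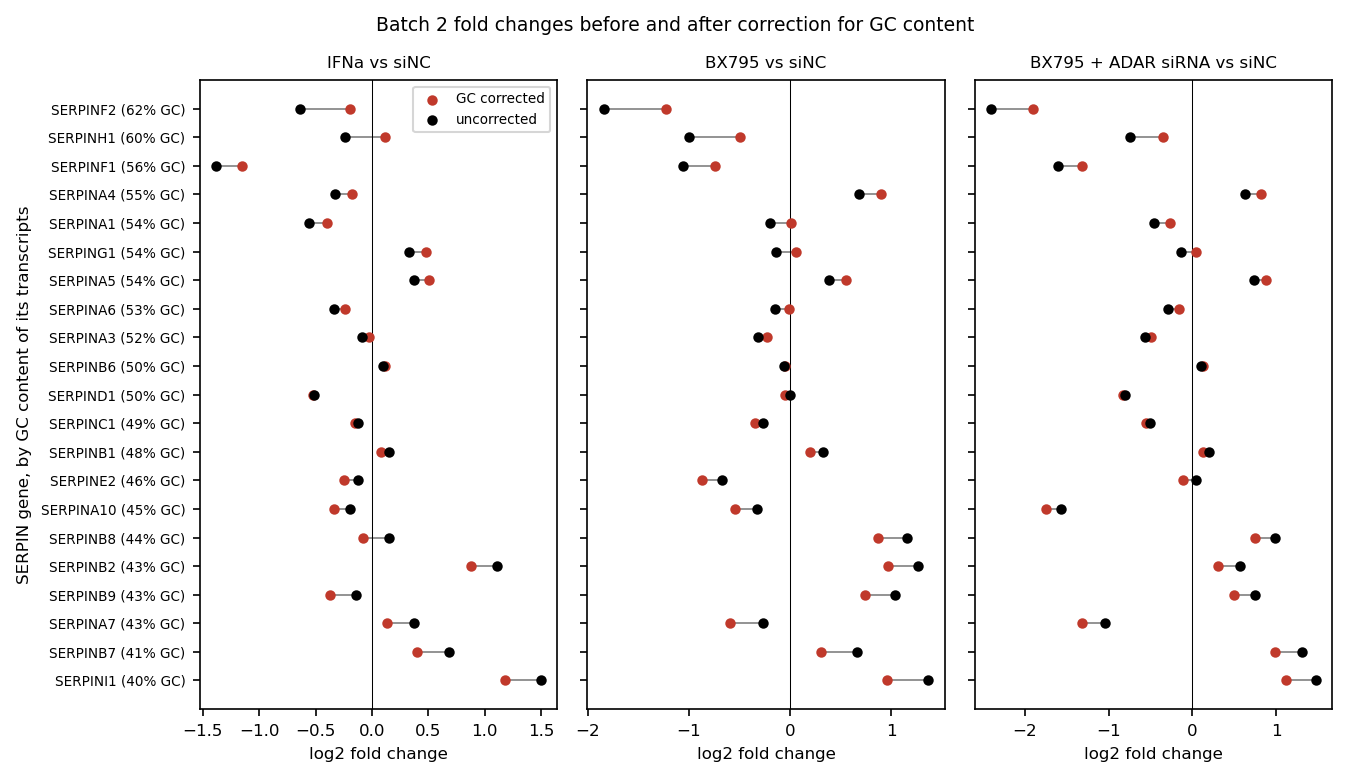
log2 fold change of 21 SERPIN genes in the 3 batch 2 comparisons against siNC, before (black) and after (red) correction for GC content, with genes ordered by the GC content of their transcripts. The GC-rich genes at the top move right and the GC-poor genes at the bottom move left, and SERPINF2 stands at -1.22 with BX795 after correction and at -1.84 before it.

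The ADAR siRNA was tested a second time in the presence of BX795, in other libraries than those of batch 1. The labels do not say if the BX795 wells received siNC. Effects of the ADAR siRNA and of siRNA transfection itself therefore cannot be told apart in this comparison. Against BX795 alone, BX795 plus the ADAR siRNA had 2 serpins higher and 3 lower of 25 tested, beside 5.06% and 4.46% of all tested genes (9.52% in either direction). The median log2 fold change was -0.17 over these serpins, beside 0.02 over all genes. SERPINE2 had 10.7 and 10.9 CPM with BX795 plus the ADAR siRNA and 6.55, 6.44 and 6.91 CPM with BX795, a log2 fold change of 0.71 ± 0.11 (SE, adjusted p = 0.000229). The groups were apart, as they were for the ADAR siRNA in batch 1. SERPINA10 had 3.59 and 3.91 CPM with BX795 plus the ADAR siRNA and 7.96, 9.54 and 9.33 CPM with BX795, a change of -1.25 ± 0.10 (SE, adjusted p = 3.02e-07). SERPIND1 had 5.50 and 6.47 CPM with BX795 plus the ADAR siRNA and 9.97, 10.1 and 11.4 CPM with BX795, a change of -0.81 ± 0.17 (SE, adjusted p = 0.00464). SERPINA7 had 6.68 and 10.4 CPM with BX795 plus the ADAR siRNA and 13.4, 15.1 and 15.4 CPM with BX795, a change of -0.77 ± 0.15 (SE, adjusted p = 0.00295). These 4 genes were called in the same direction with the ADAR siRNA in batch 1, which shares no library with this comparison. The batch 1 call of SERPINA7 was lost when any 1 library of its groups was left out. SERPINA5 rose by 0.34 ± 0.09 (SE, adjusted p = 0.0161) and was not called in batch 1 (-0.12 ± 0.08, SE, adjusted p = 0.343). The share of all genes called alike in both comparisons was not computed. SERPINF1 (-0.54 ± 0.20, SE, adjusted p = 0.101), SERPINB7 (0.64 ± 0.23, SE, adjusted p = 0.102), SERPINH1 (0.24 ± 0.12, SE, adjusted p = 0.23) and SERPINB9 (-0.29 ± 0.13, SE, adjusted p = 0.212) did not pass. SERPINB2 had 2.16 and 3.75 CPM with BX795 plus the ADAR siRNA and 4.32, 6.10 and 4.10 CPM with BX795, at -0.70 ± 0.23 (SE, adjusted p = 0.0601), and was called lower under 8 alternatives (-1.21 to -0.66). SERPINF2 was at -0.56 ± 0.18 (SE, adjusted p = 0.0575) and was called lower under 5 alternatives (-0.74 to -0.59). With GC correction SERPINB2, SERPINF1, SERPINF2, SERPINB6 and SERPINB7 passed. Here 4 of 10 hepatocyte genes were lower and 1 was higher. Among 6 biliary and progenitor genes, 2 were higher and 1 was lower, and among 7 mesenchymal genes, 1 was higher and 2 were lower. The part of these markers was not tested. Without replicate 1 of BX795 plus the ADAR siRNA, 1 serpin fell, and SERPIND1 (-0.74, adjusted p = 0.0653) and SERPINA7 (-0.54, adjusted p = 0.0684) lost their calls, while 7 fell without replicate 2. SERPINA5 lost its call without BX795 replicate 1 or replicate 2 of BX795 plus the ADAR siRNA (0.20 to 0.21, adjusted p 0.133 to 0.318), which left 1 serpin higher in place of 2, and a fit of batch 2 alone called neither SERPINA5, SERPINA7 nor SERPIND1. With the compared groups alone SERPINA5 was at 0.32 (adjusted p = 0.131).

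The difference between the ADAR siRNA responses with and without BX795 was tested as a contrast that crosses the batches, so BX795 and batch cannot be told apart in it. The reference without BX795 received siNC, while the labels do not say if the BX795 wells did. A difference in siRNA transfection between the references thus cannot be told apart either. By this contrast 1 serpin was higher and 3 were lower of 25 tested, beside 1.42% and 2.00% of all tested genes (3.42% in either direction). The median difference was -0.22 over the serpins, beside 0.04 over all genes, on the log2 scale. SERPINB2 differed by -2.54 ± 0.30 (SE, adjusted p = 7.75e-05), its response being -0.70 ± 0.23 with BX795 and 1.84 ± 0.19 without. SERPINA10 differed by -0.84 ± 0.12 (SE, adjusted p = 0.000345), at -1.25 ± 0.10 with BX795 and -0.41 ± 0.06 without. SERPINA10 thus fell further in the BX795 libraries of batch 2, while SERPINB2 rose with the ADAR siRNA in batch 1 and was at a negative value with BX795 plus the ADAR siRNA against BX795, called lower under some alternatives. SERPINA3 differed by -0.62 ± 0.16 (SE, adjusted p = 0.0307), at -0.26 ± 0.12 with BX795 and 0.36 ± 0.10 without. SERPINA5 differed by 0.46 ± 0.12 (SE, adjusted p = 0.0362), at 0.34 ± 0.09 with BX795 and -0.12 ± 0.08 without. SERPINE2 was at -0.30 ± 0.14 (SE, adjusted p = 0.349), SERPIND1 at -0.16 ± 0.21 (SE, adjusted p = 0.816), SERPINA7 at -0.43 ± 0.19 (SE, adjusted p = 0.308) and SERPINF2 at -0.59 ± 0.22 (SE, adjusted p = 0.202), none of which passed, though SERPINF2 was called lower under 4 alternatives (-0.74 to -0.62). SERPINA3 lost its call without siNC replicate 1 or 3, ADAR siRNA replicate 2 or 3, BX795 replicate 2, or replicate 1 of BX795 plus the ADAR siRNA (-0.63 to -0.51, adjusted p 0.0584 to 0.145). SERPINA5 lost it without any 1 of the 11 libraries but BX795 replicate 2 (0.31 to 0.50, adjusted p 0.057 to 0.28).

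**Figure D5:**
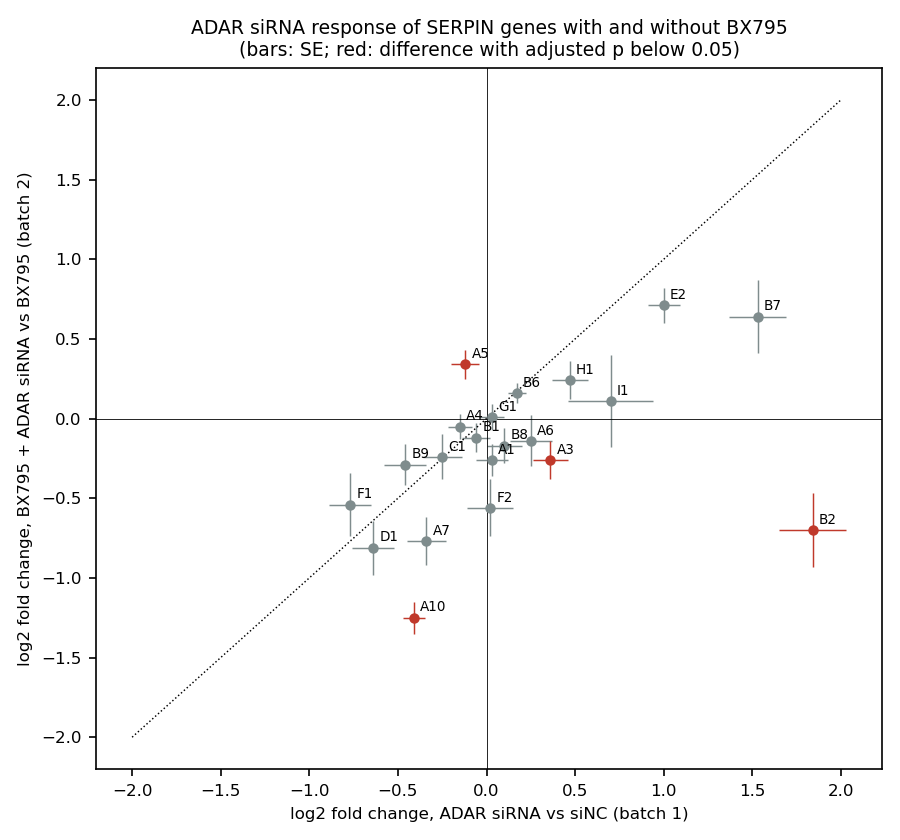
log2 fold change with the ADAR siRNA in batch 1 (horizontal) and with BX795 plus the ADAR siRNA against BX795 in batch 2 (vertical) for 21 SERPIN genes, with SE bars and a dotted line of equal response. SERPINE2 lies in the upper right, SERPINA7, SERPINA10, SERPIND1 and SERPINF1 in the lower left, and SERPINB2 stands apart at 1.84 and -0.70.

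Against siNC, BX795 plus the ADAR siRNA moved 15 of 25 tested serpins, 6 up and 9 down, beside 21.4% and 18.9% of all tested genes (40.3% in either direction). The median log2 fold change was -0.46 over the serpins and -0.02 over all genes. Liver plasma serpins led the falls. SERPINF2 had 8.51 and 6.94 CPM with BX795 plus the ADAR siRNA and 33.0, 52.7 and 36.4 CPM with siNC, a log2 fold change of -2.40 ± 0.18 (SE, adjusted p = 1.82e-08), or -1.90 ± 0.11 (SE, adjusted p = 2.60e-10) after GC correction. SERPINA10 had 3.59 and 3.91 CPM with BX795 plus the ADAR siRNA and 11.5, 10.9 and 11 CPM with siNC, at -1.57 ± 0.10 (SE, adjusted p = 3.13e-09). SERPINF1 had 1.40 and 2.50 CPM with BX795 plus the ADAR siRNA and 5.10, 7.52 and 5.71 CPM with siNC, at -1.60 ± 0.19 (SE, adjusted p = 4.51e-06). Every treated library was below every control in these 3 genes. SERPINA7 had 6.68 and 10.4 CPM with BX795 plus the ADAR siRNA and 20.3, 18.6 and 13.6 CPM with siNC, at -1.04 ± 0.16 (SE, adjusted p = 4.62e-05). SERPIND1 had 5.50 and 6.47 CPM with BX795 plus the ADAR siRNA and 12.5, 11.1 and 7.19 CPM with siNC, at -0.80 ± 0.18 (SE, adjusted p = 0.00138). Antithrombin (SERPINC1), at 15.6 and 18.8 CPM with BX795 plus the ADAR siRNA and 22.0, 32.2 and 19.3 CPM with siNC, was called in this comparison at -0.51 ± 0.14 (SE, adjusted p = 0.00843). SERPINA1 fell, at -0.46 ± 0.10 (SE, adjusted p = 0.00186), SERPINA3 at -0.57 ± 0.12 (SE, adjusted p = 0.000827) and SERPINH1 at -0.75 ± 0.12 (SE, adjusted p = 7.11e-05). After GC correction SERPINA1 was at -0.27 ± 0.10 (SE, adjusted p = 0.0448) and SERPINH1 at -0.35 ± 0.07 (SE, adjusted p = 0.00108), both smaller. SERPINB8, with 19.1 and 22.1 CPM against 10.9, 10.6 and 9.49 CPM with siNC, rose by 0.99 ± 0.12 (SE, adjusted p = 5.24e-06), and SERPINB9 by 0.75 ± 0.14 (SE, adjusted p = 0.000318). SERPINB7, at 1.08 and 1.50 CPM against 0.553, 0.497 and 0.519 CPM with siNC, rose by 1.30 ± 0.27 (SE, adjusted p = 0.000893), and SERPINI1 by 1.47 ± 0.33 (SE, adjusted p = 0.00166). SERPINB7 and SERPINI1 stood at a few CPM or less in batch 2. SERPINA5 rose by 0.73 ± 0.09 (SE, adjusted p = 3.98e-06) and SERPINA4 by 0.63 ± 0.08 (SE, adjusted p = 1.28e-05). The hepatocyte markers fell in 8 of 10 and rose in 2, with summed levels of 4787 to 5867 CPM against 9091 to 11045 CPM with siNC, and their part in these falls was not tested. SERPINC1 lost its call without replicate 1 of BX795 plus the ADAR siRNA (-0.40, adjusted p = 0.0751) and with the compared groups alone (-0.54, adjusted p = 0.0869), where SERPINB7 lost it too (1.25, adjusted p = 0.0507).

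The proteases that serpins hold back, and the proteins that work beside them, were read from lists of partner genes. Values of partner genes and of AGT, here and above, are without correction for GC content. The other alternatives were not read for them either. Of 14 plasma proteases tested, 2 rose and 4 fell with the ADAR siRNA against siNC, beside 11% and 10.8% of all genes, with a median log2 fold change of -0.15 over the list and -0.02 over all genes. F11, clotting factor XI, fell, at -0.91 ± 0.09 (SE, adjusted p = 3.27e-07), with 20.0 ± 1.13 CPM with the ADAR siRNA and 37.7 ± 1.73 CPM with siNC (SD, n = 3 each). MASP1, a complement protease, fell, at -0.58 ± 0.10 (SE, adjusted p = 0.000234) and KLKB1, plasma kallikrein, at -0.40 ± 0.10 (SE, adjusted p = 0.00664). With BX795 plus the ADAR siRNA against BX795 alone, 3 were called, all lower, beside 4.46% of all genes lower, F11 at -1.66 ± 0.13 (SE, adjusted p = 2.22e-07), MASP1 at -0.59 ± 0.13 (SE, adjusted p = 0.00726) and F12, clotting factor XII, at -0.72 ± 0.18 (SE, adjusted p = 0.0158). F11 was lower with the ADAR siRNA in 2 comparisons that share no library, though the BX795 reference may lack a control siRNA. The list had 4 of 14 genes called with BX795 against siNC, all lower, where 23.7% of all genes were lower and 47.1% were called in either direction, with F12 at -1.10 ± 0.15 (SE, adjusted p = 1.78e-05), C1R at -0.51 ± 0.08 (SE, adjusted p = 5.06e-05) and F2, prothrombin, at -0.78 ± 0.14 (SE, adjusted p = 0.000237). With IFNa 2 rose and 2 fell, beside 18.4% and 15.9% of all genes, F12 at -0.96 ± 0.17 (SE, adjusted p = 0.000372) and F2 at -0.68 ± 0.16 (SE, adjusted p = 0.0034). With the ADARB1 siRNA 1 fell, beside 2.51% of all genes, F11 at -0.39 ± 0.08 (SE, adjusted p = 0.00911). With BX795 plus the ADAR siRNA against siNC 5 were called, all lower, beside 18.9% of all genes lower.

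The receptor of urokinase and vitronectin, an adhesion protein of plasma, were among 5 cofactors and clearance receptors. With the ADAR siRNA 1 rose and 2 fell, beside 11% and 10.8% of all genes: PLAUR, the urokinase receptor, by 0.71 ± 0.15 (SE, adjusted p = 0.00152), VTN, vitronectin, at -0.40 ± 0.11 (SE, adjusted p = 0.0172) and LRP2 at -0.44 ± 0.14 (SE, adjusted p = 0.0245). With BX795 3 fell, beside 23.7% of all genes, LRP1, a receptor that clears serpin complexes, at -0.60 ± 0.08 (SE, adjusted p = 1.41e-05), PLAUR at -1.09 ± 0.18 (SE, adjusted p = 0.000116) and LRP2 at -0.62 ± 0.18 (SE, adjusted p = 0.00883). With BX795 plus the ADAR siRNA against BX795 alone LRP2 fell, at -1.59 ± 0.24 (SE, adjusted p = 0.00022). With IFNa 2 fell, beside 15.9% of all genes, LRP1 at -0.78 ± 0.09 (SE, adjusted p = 1.13e-05) and VTN at -0.35 ± 0.13 (SE, adjusted p = 0.0486).

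Of 9 cellular and leukocyte proteases tested, CASP1, the inflammatory caspase, rose by 0.32 ± 0.10 (SE, adjusted p = 0.0237) with the ADAR siRNA, by 1.23 ± 0.12 (SE, adjusted p = 1.16e-06) with IFNa and by 0.89 ± 0.11 (SE, adjusted p = 8.06e-06) with BX795. The list had 2 higher and 1 lower with the ADAR siRNA, 4 and 2 with IFNa, and 3 and 3 with BX795, beside 21.8%, 34.3% and 47.1% of all genes called in either direction in these comparisons. CTSS, cathepsin S, fell, at -0.71 ± 0.07 (SE, adjusted p = 8.30e-06) with the ADARB1 siRNA and rose by 0.71 ± 0.07 (SE, adjusted p = 8.69e-07) with BX795. Among 12 protease inhibitors of other families, 1 rose and 4 fell with the ADAR siRNA, beside 11% and 10.8% of all genes, ITIH3 by 1.11 ± 0.16 (SE, adjusted p = 4.29e-05), TFPI2 at -0.48 ± 0.09 (SE, adjusted p = 0.000403) and SLPI, a leukocyte protease inhibitor, at -0.61 ± 0.11 (SE, adjusted p = 0.000632). With BX795 5 rose and 3 fell, beside 23.4% and 23.7% of all genes, led by TFPI2 at 2.08 ± 0.09 (SE, adjusted p = 4.17e-11) and SLPI at -0.98 ± 0.11 (SE, adjusted p = 3.72e-06). With BX795 plus the ADAR siRNA against BX795, 4 fell, beside 4.46% of all genes, among them ITIH4 at -0.58 ± 0.13 (SE, adjusted p = 0.00599) and CPB2, a carboxypeptidase that slows fibrin breakdown, at -0.64 ± 0.17 (SE, adjusted p = 0.0204). Of the 7 collagens, 1 fell and 0 rose with the ADAR siRNA, beside 10.8% and 11% of all genes, with a median of -0.04 over the list. This was COL3A1, at -1.47 ± 0.16 (SE, adjusted p = 1.46e-06).

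AGT, which encodes angiotensinogen, is a serpin by fold without a SERPIN symbol. It had 132 ± 7.37 CPM with BX795 and 227 ± 39.1 CPM with siNC (SD, n = 3 each), a log2 fold change of -0.79 ± 0.10 (SE, adjusted p = 5.84e-06). With BX795 plus the ADAR siRNA it had 95.0 ± 3.58 CPM (SD, n = 2), at -1.26 ± 0.11 (SE, adjusted p = 1.35e-07) against siNC and -0.47 ± 0.11 (SE, adjusted p = 0.00878) against BX795. It was not called with the ADAR siRNA (-0.23 ± 0.09, SE, adjusted p = 0.0874), the ADARB1 siRNA (-0.04 ± 0.09, SE, adjusted p = 0.912) or IFNa (-0.17 ± 0.11, SE, adjusted p = 0.226).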

How the data were processed

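The authors deposited expected counts per gene, 1 column per library, made with STAR and Salmon on GRCh38.p14 per the submitters' processing notes, with versions, roles and settings of these tools not given in the sources used here. Values were rounded to whole numbers, which moved none by more than 0.5. Within 0.005 of a whole number lay 94.82% of values, and 0 values of SERPINA3. SERPINB3 and SERPINB4 are near copies, and their counts are uncertain. Symbols were found for 61463 of 78894 genes. Of the 34 members, 1 is not reported here; it stayed in the fits over all genes. The members, the gene lists and the tests were chosen with earlier results of these data known.

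Tests were quasi-likelihood F tests of edgeR 4.0.16 (R 4.3.3), with TMM scaling, filterByExpr defaults (23121 genes kept) and 1 mean per group over all 19 libraries, leaving 12 residual degrees of freedom. P-values were adjusted by Benjamini-Hochberg over all kept genes. The SE is the absolute log2 fold change divided by the square root of F. Full values are given for up to 5 rises and 5 falls per comparison among called serpins averaging 1 CPM or more in either group, for serpins fixed by role, and for up to 3 called genes of each partner list. Lengths and GC content were taken from GENCODE transcripts; 87% of kept genes had a GC value, and the GC correction used 20 bins. Alternatives were DESeq2 1.42.0 size factors and its Wald test, no filter, a fit of a batch or of the compared groups alone, a replicate block, GC correction, both together, and each library left out. The fit was tested on simulated counts. Depth was 13.1 to 77.1 M counts per library, so weakly expressed genes carry wider errors in batch 2. Where a comparison has 1 library left in a group, that library is assumed to vary like the other groups.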

Additional observations from a re-analysis of the deposited data

Results flagged for a closer look

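The ADAR siRNA response of 4 serpins differed with BX795 from that without it, by edgeR's test of the difference itself. The log2 difference, with BX795 minus without, was -2.54 for SERPINB2, -0.84 for SERPINA10, -0.62 for SERPINA3 and 0.46 for SERPINA5. SERPINB2 and SERPINA10 were called under all 18 alternatives run. SERPINA3 lost its call under 6 of the 18 and SERPINA5 under 14. Since the response with BX795 was measured in batch 2 and the response without it in batch 1, BX795 and batch cannot be told apart. Nor can siRNA transfection, as the labels do not say if the BX795 wells received siNC.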

How the results depend on the processing

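Of 74 called values among 200 serpin values, 49 were called in every alternative and 0 changed sign. Relative to all libraries in 1 fit, the ADARB1 siRNA comparison had 5, 6, 5 and 5 serpins higher, in place of 2, with batch 1 alone, the compared groups alone, GC correction and replicate block with GC correction, and 5 and 5 lower, in place of 2, with the first 2 of these. Over all genes the first 2 of these settings gave 1794 and 1642 higher, in place of 485, and 1838 and 1753 lower, in place of 581. With the compared groups alone, IFNa had 1 higher and 2 lower (in place of 4 and 5) and BX795 4 lower (7). For BX795 plus ADAR siRNA against BX795, 4 were higher (2) with GC correction and 1 with batch 2 alone, the compared groups alone, the replicate block and that block with GC correction, and 5, 7, 6, 1, 6 and 7 lower (3) with DESeq2 size factors, its Wald test, no filter, batch 2 alone, GC correction and replicate block with GC correction. In edgeR's test of the difference between responses, 0 were higher (1) with DESeq2 size factors, the compared groups alone, the replicate block and that block with GC correction, where 8 serpins had an unadjusted p under 0.05 in either direction with all libraries in 1 fit. The cause of these moves was not tested.

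Deviations from the group means had an r of -0.16 to 0.21 between same-numbered replicates and of -0.21 to 0.16 between other pairs. In groups of so few libraries deviations mirror each other, so this does not settle whether the numbers pair the libraries. With the replicate block, 0 serpins in place of 1 were higher in the difference between responses, SERPINA5, whose adjusted p was 0.127. The block also ended the calls of SERPINA7 (adjusted p = 0.0964), SERPINB6 (0.0911) and SERPINI1 (0.0918) with the ADAR siRNA, SERPINB6 (0.0511) between the siRNAs and SERPINA5 (0.0663) between BX795 plus ADAR siRNA and BX795, and no other serpin call.

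Leaving out each library in turn gave 4 to 5 higher and 4 to 5 lower for the ADAR siRNA, 1 to 2 and 2 for the ADARB1 siRNA, 4 to 7 and 4 to 5 for ADAR against ADARB1 siRNA, 3 to 7 and 3 to 5 for IFNa, 7 to 8 and 5 to 10 for BX795, 6 to 8 and 8 to 10 for BX795 plus ADAR siRNA against siNC, 1 to 2 and 1 to 7 against BX795, and 0 to 1 and 2 to 4 for the difference between responses. Over all genes, the counts that moved by more than 1.5 times were ADAR siRNA 4298 to 4391 higher (in place of 2539) and 3814 to 3832 lower (in place of 2503), ADARB1 siRNA 259 to 1794 higher (in place of 485) and 329 to 1838 lower (in place of 581), ADAR against ADARB1 siRNA 4092 to 4096 higher (in place of 2288) and 3676 to 3678 lower (in place of 2230), IFNa 975 to 2698 higher (in place of 4250) and 921 to 2248 lower (in place of 3682), BX795 plus ADAR siRNA against siNC 2092 to 2494 higher (in place of 4942) and 2376 to 2818 lower (in place of 4368), BX795 plus ADAR siRNA against BX795 308 to 2160 higher (in place of 1170) and 450 to 1586 lower (in place of 1031), the difference between responses 102 to 799 higher (in place of 328) and 282 to 769 lower (in place of 462).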
